A study of Mus musculus with 2 samples.

Results

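The genes described here encode the proteins of the cytosolic ribosome and of the mitochondrial ribosome. They were taken by name from the protein-coding genes of the deposited table, as names starting Rpl or Rps with a digit, Rplp0 to Rplp2 and Rpsa for the cytosolic class, and Mrpl or Mrps with a digit for the mitochondrial class, without the Rps6k kinases. The rule found 172 of 55246 loci, 94 cytosolic and 78 mitochondrial. It also takes in names that are not core subunits, namely 8 paralogs of other members, 8 names marked as retrocopies (-ps), and Rps19bp1, which encodes a protein that binds Rps19. Mrps36 and Mrpl58 carry mitochondrial ribosomal names but are also known by other roles, as a subunit of the 2-oxoglutarate dehydrogenase complex and as a peptidyl-tRNA hydrolase that sits in the large subunit.

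The study sequenced RNA of Treg cells, the CD4 T cells that restrain immune responses and whose identity rests on the transcription factor Foxp3. They were taken from colon lamina propria, tissue that lies beneath the gut epithelium, in female mice. One library came from wild-type (WT) cells and 1 from Exon2KO cells, in which the Foxp3 gene lacks exon 2. Age, strain, the cell sort and the number of animals behind each library are not given in the sources used here. With 1 library per genotype no value has a replicate check, every test sets the reads of 1 library against those of the other and does not test the genotype, and every interval covers counting error only.

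Ribosomes in the cytosol and in mitochondria are separate machines. Cytosolic ribosomes have a large and a small subunit, and the acidic stalk proteins of the large subunit recruit elongation factors. Many cytosolic ribosomal protein mRNAs begin with a C followed by a run of pyrimidines at their first base, a feature through which mTOR signalling controls their translation. The mitochondrial ribosome is built from rRNAs made in the organelle and from proteins encoded in the nucleus, and it makes the few hydrophobic subunits of the respiratory chain that mitochondrial DNA encodes. T cells make large amounts of both kinds of ribosome when they are activated and grow.

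Reads on genes numbered 16281133 in WT and 15412425 in Exon2KO. At this depth a gene with 0 reads can still hold 1.84e-05% of WT reads or 1.95e-05% of Exon2KO reads (3 reads). Both libraries held reads of CD4 T and Treg cell markers, among them Cd3e with 5154 and 5262 reads and Foxp3 with 6991 and 20946. Of the 9 listed, 3 passed as higher and 5 as lower. The lower genes were Ikzf2 (8476 and 440 reads), which was called lower at 2-fold, Trac (10741 and 8049), Il2ra (2968 and 2370), Cd3d (7093 and 6056) and Cd3g (16671 and 15187). Counts per gene do not separate exon 2 from the rest of Foxp3, so they do not check the genotype. Markers of other cells were present as well. The 14 epithelial markers summed to 0.00958% of the reads in WT and 0.0527% in Exon2KO, with 11 called higher at 2-fold and Fabp2 at 0 in WT, while Epcam (782 and 609 reads) and Muc2 (41 and 21) passed as lower. The 10 B and plasma cell markers summed to 3.37% and 3.02%, the 9 myeloid markers to 0.0229% and 0.0260%, the 6 CD8 T cell markers to 0.308% and 0.420%, and the 9 stromal and endothelial markers to 0.00729% and 0.00742%. Genes within these sums moved apart. Gzmb (43499 and 63649 reads) and Gzmk (2 and 19) passed as higher, while Gzma (5153 and 164), Cd8a (23 and 6), Cd8b1 (138 and 91) and Nkg7 (1261 and 859) passed as lower. Of the stromal and endothelial markers, Vwf (5 and 31), Cdh5 (0 and 15) and Lum (6 and 20) were called higher, and Pecam1 (917 and 834), which held most of the reads, passed as lower. Their part in the values below was not tested, and in bulk RNA fewer cells of a type and less RNA per cell cannot be told apart.

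The mitochondrial class stood higher relative to the cytosolic class in the Exon2KO library. Of the reads on members, 11.2% (exact 95% interval 11.2 to 11.3) were mitochondrial in WT, 64176 against 507177 cytosolic reads, and 12.9% (12.8 to 12.9) in Exon2KO, 71912 against 487244. The ratio of mitochondrial to cytosolic reads was 1.17-fold higher in Exon2KO (95% interval 1.15 to 1.18), a value that does not depend on how the libraries are scaled. Without paralogs, retrocopies and Rps19bp1 it was also 1.17-fold (1.15 to 1.18). As medians over genes, the log2 ratio of Exon2KO over WT was 0.12 for mitochondrial and -0.03 for cytosolic members, a difference of 0.16 or 1.11-fold.

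Library scaling sets the side of 0 on which the cytosolic class falls. With TMM scaling the summed cytosolic reads had a log2 ratio of -0.08 (95% interval -0.09 to -0.08), and with total counts 0.02. As shares of all reads they were 3.12% in WT and 3.16% in Exon2KO. The mitochondrial sum lay above 0 under both, at 0.14 (0.12 to 0.15) with TMM and 0.24 with total counts, and its share was 0.394% and 0.467%. Total counts raise log2 ratios by 0.11 relative to TMM before the prior count is added, and 34 of the 166 tested members change sign between them.

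Of the 172 members, 166 had at least 10 reads over both libraries and were tested, 89 cytosolic and 77 mitochondrial. Rpl10l, Rpl13a-ps1, Rpl36-ps4, Rpl9-ps1 and Mrpl53 had 0 reads in both libraries, and Rpl3l, below the minimum, had 5 and 0. A gene was called when an exact binomial test, which asks whether its reads split between the libraries as their scaled sizes do, gave a Benjamini-Hochberg adjusted p below 0.05 over all 17363 tested genes and the ratio was at least 2-fold. By this rule 13.8% of all tested genes (7.2% higher and 6.61% lower in Exon2KO) and 4.27% of protein-coding genes with at least 1000 reads were called, against 1 cytosolic and 0 mitochondrial members. Most members lay close to equality. Within 1.2-fold were 74 of 89 cytosolic members (83.1%) and 57 of 77 mitochondrial members (74.0%), beside 41.5% of all tested genes and 64.0% of protein-coding genes with at least 1000 reads.

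At any fold, 53 of 89 cytosolic members passed an adjusted p of 0.05, 20 higher and 33 lower in Exon2KO, beside 41.3% of all tested genes (19.4% higher and 21.9% lower). With total counts the split became 42 higher and 17 lower, and among all tested genes 27.3% were then higher and 16.2% lower. Of the mitochondrial members, 32 of 77 passed, 30 higher and 2 lower, and with total counts 51 and 0. Among protein-coding genes with at least 1000 reads, 62.0% passed, 24% higher and 38.0% lower. Depth, on which the test depends, differed between these groups, with a median of 4142 WT reads for cytosolic members, 757 for mitochondrial members and 1191.5 for those protein-coding genes. The mitochondrial class was 1-sided, with 61 of 77 tested members above 0 on the log2 scale, beside 50.3% of all tested genes and 43.6% of protein-coding genes with at least 1000 reads. With an assumed spread between samples of 0.2 or 0.4 (edgeR's exact test with that biological coefficient of variation, BCV), 0 members had an adjusted p below 0.05, and 1 and 0 had an unadjusted p below 0.05. Of all 17363 tested genes, 1115 had an adjusted p below 0.05 with a BCV of 0.2 and 164 with 0.4. The authors' deposited table gives a p-value for 167 members. Of these 0 in the authors' deposited table had an adjusted p below 0.05 and 1 had an unadjusted p below 0.05. The lowest adjusted p of a member in the authors' deposited table was 0.178, for Rpl39l. Of all genes in the authors' deposited table, 1029 had an adjusted p below 0.05 and 2943 had an unadjusted p below 0.05.

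**Figure D1:**
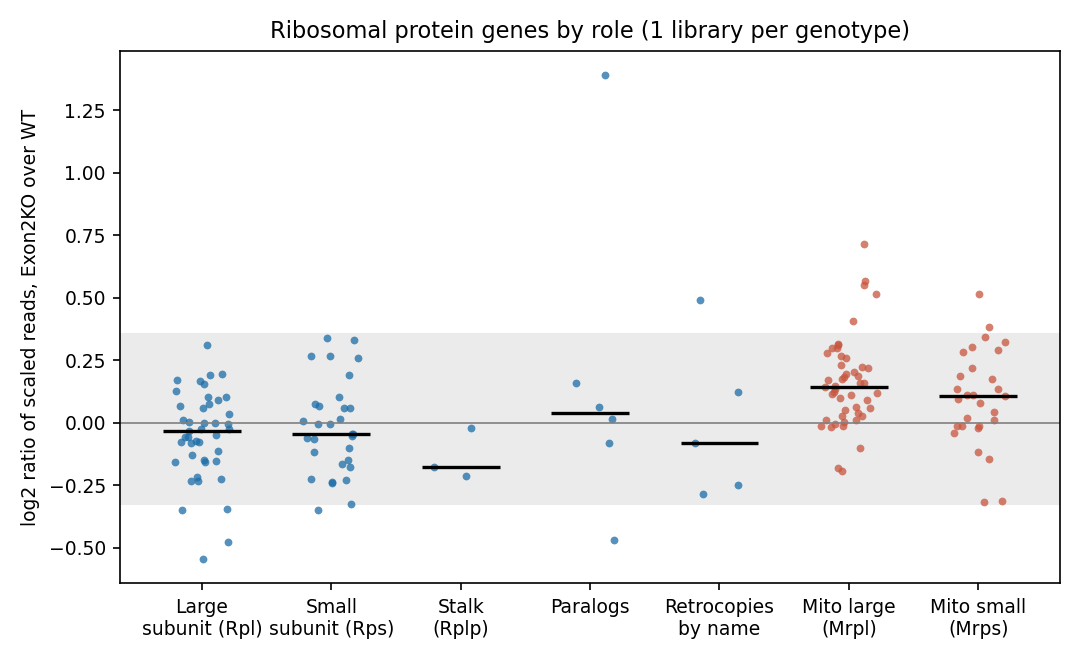
Log2 ratio of scaled reads, Exon2KO over WT (vertical axis), for tested members grouped by role, with 1 point per gene, black lines at the medians and a grey band for the interquartile range of all tested genes (-0.33 to 0.35). The medians of the large and small cytosolic subunits sit just below 0 (-0.03 and -0.05) and those of the mitochondrial subunits above it (0.14 and 0.10), under TMM scaling. The single point above 1 is the paralog Rpl39l, and Rps19bp1 is not drawn.

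The large subunit of the cytosolic ribosome had 43 tested members with a median log2 ratio of -0.03, of which 9 passed the test as higher and 19 as lower. Rpl7a, a large subunit protein (chromosome 2, 26910764 to 26913318, plus strand, GRCm38), had 1789 reads in WT and 1248 in Exon2KO, or 114 and 78.1 CPM (reads scaled to the size of each library). Its log2 ratio was -0.55 (95% interval -0.65 to -0.44; exact binomial test, adjusted p = 9.23e-24), the lowest of the class among members with at least 100 reads in 1 library. Rpl4, which lines the peptide exit tunnel, had 13782 and 10072 reads, or 878 and 630.0 CPM, and a log2 ratio of -0.48 (-0.52 to -0.44). Rpl12, which lies at the base of the stalk, had 3406 and 2726 reads and a log2 ratio of -0.35 (-0.42 to -0.27). These 3 genes were lower in Exon2KO under every scaling tried, and each ratio was under 1.5-fold. Rpl5 and Rpl11, which join the 5S rRNA and can bind the p53 regulator Mdm2, had log2 ratios of -0.03 and -0.03 and did not pass.

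The stalk had 3 tested members, and Rplp0 and Rplp1 were among the most abundant of all members. Rplp0 had 25571 and 23031 reads, and Rplp1 had 7418 and 6522. Their log2 ratios were -0.18 (-0.20 to -0.15) and -0.21 (-0.26 to -0.16), and both passed as lower. Rplp2, with 3990 and 4007 reads, had a log2 ratio of -0.02 (-0.08 to 0.04) and did not pass.

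The small subunit had 31 tested members with a median of -0.05, 9 higher and 12 lower, and it held the highest ratios among core cytosolic members with at least 100 reads in 1 library. Rps21 had 875 and 1127 reads, or 55.8 and 70.5 CPM, with a log2 ratio of 0.34 (0.21 to 0.47; exact binomial test, adjusted p = 1.30e-06). Rps12 had 976 and 1250 reads with a ratio of 0.33 (0.21 to 0.45). Rps26 had 2235 and 2741 reads with a ratio of 0.27 (0.19 to 0.35). At the other end, Rps19, a gene mutated in Diamond-Blackfan anaemia, had 12698 and 10156 reads with a ratio of -0.35 (-0.39 to -0.31). Rps6, the substrate of the S6 kinases, had 11369 and 9243 reads with a ratio of -0.33 (-0.37 to -0.29). Genes of 1 subunit thus moved in both directions between these libraries. With total counts Rps19 was at -0.24 and Rps21 at 0.44.

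**Figure D2:**
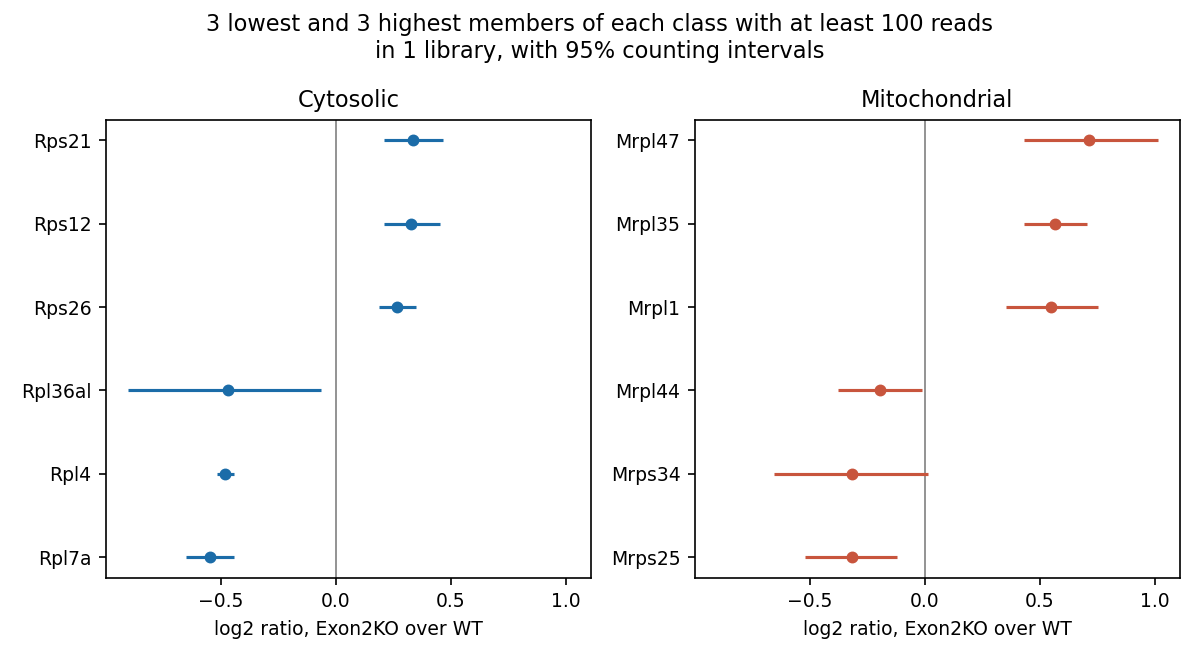
Log2 ratio of Exon2KO over WT with 95% counting intervals (horizontal axis) for the 3 lowest and 3 highest members of each class that had at least 100 reads in 1 library. Cytosolic extremes run from -0.55 (Rpl7a) to 0.34 (Rps21) and mitochondrial extremes from -0.32 (Mrps25) to 0.71 (Mrpl47). The wide intervals of Rpl36al and Mrps34 reflect their low counts.

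Promoter sequences from RefSeq (build GRCm38.p6) were matched for 135 members, 66 cytosolic and 69 mitochondrial. The 40 bases centred on the annotated first base, 20 before it and 20 from it onward, are shown 5′ to 3′ for members with low and high ratios because a pyrimidine run at the start is the feature that cytosolic ribosomal protein mRNAs are known for. Capitals mark an unbroken run of at least 8 C or T bases anywhere in the window, which need not include the first base. 
Rpl7a (chr2:26910787-26910826, plus strand): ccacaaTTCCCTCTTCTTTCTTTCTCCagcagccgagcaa
Rpl4 (chr9:64173367-64173406, plus strand): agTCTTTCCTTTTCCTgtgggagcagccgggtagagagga
Rps6 (chr4:86857348-86857387, minus strand): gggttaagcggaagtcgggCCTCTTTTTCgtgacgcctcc
Rpl12 (chr2:32961692-32961731, plus strand): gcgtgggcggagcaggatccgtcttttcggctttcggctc
Rps12 (chr10:23787190-23787229, minus strand): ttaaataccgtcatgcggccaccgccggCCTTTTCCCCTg
Rps26 (chr10:128626487-128626526, minus strand): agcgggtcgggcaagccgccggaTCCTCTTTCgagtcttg
Rps21 (chr2:180257359-180257398, plus strand): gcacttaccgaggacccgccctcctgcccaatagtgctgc
Mrpl1 (chr5:96210095-96210134, plus strand): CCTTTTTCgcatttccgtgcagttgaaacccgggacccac
Mrpl35 (chr6:71823765-71823804, minus strand): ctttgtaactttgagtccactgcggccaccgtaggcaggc
Mrpl55 (chr11:59202466-59202505, plus strand): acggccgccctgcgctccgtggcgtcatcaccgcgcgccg
Runs were present in Rpl7a, Rpl4 and Rps6, which were lower in Exon2KO, and also in Rps12 and Rps26, which were higher. Those of Rpl7a and Rps6 span the annotated first base, those of Rpl4 and Mrpl1 end before it, and those of Rps12 and Rps26 begin after it. Rpl12 and Rps21, lower and higher, had none of this length. Over all windows of members, more than 1 for some genes, 31 of 78 cytosolic (39.7%) and 13 of 75 mitochondrial windows (17.3%) held such a run at any place, beside 16% of 32851 promoters of all genes.

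Short motifs, none of which contains another, were also searched on both strands of the promoter sequences, from 250 bases before the start to 50 after it. The letters CCGGAAG, the core that ETS factors such as Gabpa bind, were in 34.6% of cytosolic and 34.7% of mitochondrial promoters and in 8.86% of all promoters. The letters AAGATGGC, a YY1 core, were in 10.3%, 16% and 2.75%. The palindrome that NRF1 binds was in 2.56%, 4.0% and 0.971%, and the E-box letters CACGTG in 10.3%, 9.33% and 7.15%. The letters TATAAA were in 8.97%, 6.67% and 13.6%. Both classes therefore held the ETS letters in about equal shares, while the pyrimidine run was more frequent in the cytosolic class. A match of letters is a description and not a bound site.

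Some members have a paralog that is expressed in other tissues or conditions. Rpl39l, a paralog of Rpl39 best known from the testis, was the 1 called member. It had 13 reads in WT and 38 in Exon2KO, or 0.828 and 2.38 CPM, and a log2 ratio of 1.39 (95% interval 0.58 to 2.55; exact binomial test, adjusted p = 0.00282). It is among the least abundant tested members, and all of its sequence was unique at 100 bases. Rpl39 itself had 2335 and 2600 reads and a log2 ratio of 0.13 (0.05 to 0.21).

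The other tested paralogs had ratios closer to 0. Rpl22 had 1150 and 1248 reads and its paralog Rpl22l1 had 1069 and 1099, with log2 ratios of 0.09 and 0.01, so reads of the pair were about balanced in both libraries and neither passed. With total counts Rpl22 passed as higher (exact binomial test, adjusted p = 0.00298), as did Rps27rt (exact binomial test, adjusted p = 0.0123). Rps27 had 9057 and 9610 reads and Rps27l, a p53 target, 1766 and 2006, with ratios of 0.06 and 0.16, both passing as higher. With the correction for gene length these ratios were -0.0038 and 0.084. Rps27rt, a retrotransposed copy of which 10.5% of 100-base stretches are found in no other gene, had 1183 and 1258. Its ratio of 0.06 cannot be separated from that of Rps27. Rpl7 had 9061 and 10394 reads with a ratio of 0.17 and passed as higher, while Rpl7l1, with 1376 and 1326, had a ratio of -0.08 and did not pass. Rpl36al had 115 and 84 reads and a ratio of -0.47 (-0.90 to -0.06), which did not pass (exact binomial test, adjusted p = 0.0562), beside -0.06 for Rpl36a. With a read minimum of 50 Rpl36al passed as lower (exact binomial test, adjusted p = 0.0487). None of the 5 tested retrocopies passed. They were Rps12-ps3, Rpl9-ps6, Rpl10-ps3, Rpl27-ps3 and Rpl36a-ps1, and Rpl9-ps6 was the most abundant with 785 and 756 reads.

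The large subunit of the mitochondrial ribosome had 48 tested members with a median log2 ratio of 0.14, of which 20 passed as higher and 1 as lower. Mrpl47 (chromosome 3, 32725397 to 32737605, minus strand) had 159 and 267 reads, or 10.1 and 16.7 CPM. Its log2 ratio of 0.71 (0.43 to 1.01; exact binomial test, adjusted p = 3.24e-06) was the highest of the class and the only mitochondrial ratio past 1.5-fold under TMM scaling, which 21.2% of all tested genes reached with an adjusted p below 0.05. With total counts Mrpl35 (0.67), Mrpl1 (0.66), Mrpl55 (0.62) and Mrps36 (0.62) were past 1.5-fold as well, and with the correction for gene length Mrpl35 was (0.60). Mrpl47 overlaps Ndufb5, and 79.8% of its 100-base stretches were unique. Mrpl35 had 710 and 1073 reads with a ratio of 0.57 (0.43 to 0.71). Mrpl1, a protein of the L1 stalk region, had 340 and 508 reads with a ratio of 0.55 (0.35 to 0.75), and Mrpl55, found in the mitochondrial ribosome of animals, had 536 and 781 with a ratio of 0.51 (0.36 to 0.68). The sequences of Mrpl35, Mrpl1 and Mrpl55 were all unique at 100 bases. Mrpl24 was the 1 lower large subunit gene, with 829 and 745 reads and a ratio of -0.18 (-0.33 to -0.04). It did not pass with DESeq2 size factors (exact binomial test, adjusted p = 0.0554) or with total counts, where its ratio was -0.075 (exact binomial test, adjusted p = 0.449). Mrpl44, with 519 and 462 reads and a ratio of -0.19, did not pass.

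The mitochondrial small subunit had 29 tested members with a median of 0.10, 10 higher and 1 lower. Mrps36 had 383 and 558 reads and a log2 ratio of 0.51 (0.33 to 0.71; exact binomial test, adjusted p = 4.52e-07). Mrps14 had 1674 and 2165 reads, or 107 and 135 CPM, and a ratio of 0.34 (0.25 to 0.44). Mrps25 had 459 and 375 reads, a ratio of -0.32 (-0.52 to -0.12), and passed as lower, but not with total counts, where its ratio was -0.21 (exact binomial test, adjusted p = 0.0785). Only 33.6% of its 100-base stretches were unique, since it overlaps Nr2c2, which had 444 and 511 reads, so the counts of Mrps25 are uncertain. Mrps34, with 169 and 138 reads and 33.0% unique stretches, had a ratio of -0.31, and Mrps18a, with 1110 and 1023 reads, had -0.14. Neither passed. Both subunits thus leaned the same way. Mrps18a passed as lower with a read minimum of 50 (exact binomial test, adjusted p = 0.0455) and with protein-coding genes only (exact binomial test, adjusted p = 0.0482).

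Mitochondrial members with a family number shared with the bacterial ribosome, to which Mrps24 was added by name, did not stand apart from the others. The median log2 ratio was 0.12 over the 45 tested members of this group and 0.12 over 32 others. Of these, 17 and 13 were higher and 1 and 1 lower. The 4 X-linked cytosolic members, Rpl10, Rpl36a, Rpl39 and Rps4x, had a median of 0.05.

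Levels between genes were compared as RPKM, reads scaled to deposited gene length and to library size. In WT, high cytosolic levels included 982 RPKM for Rplp0, 947 for Rplp1, 937 for Rpl36 and 772 for Rps14. The highest mitochondrial levels were 152 RPKM for Mrpl54, 134 for Mrps6, 68.3 for Mrps21, 63.6 for Mrpl27 and 61.8 for Mrpl46. Mrpl54 and Mrps6 led the mitochondrial class in both libraries. Levels depend on the deposited gene length, and no order is read from neighbours such as Rplp0 and Rplp1.

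The lowest tested levels in WT were 0.997 RPKM for Rpl39l, 1.42 for Rpl36a-ps1 and 2.04 for Rps10, and in the mitochondrial class 2.29 for Mrpl47, 3.14 for Mrps35 and 4.03 for Mrps31. Some core cytosolic genes were low as well. Rps10 had 74 and 64 reads, Rpl24 had 36 and 46, and Rpl13a had 215 and 246, and each shares sequence with another annotated locus. Of Rpl24, 51.0% of 100-base stretches were unique, of Rps10 83.7% and of Rpl13a 83.1%. The abundant Rps6 also shared sequence, with 59.3% unique. In the cytosolic class the median unique share was 83.2%, with 34 of 89 tested members below 80%, and in the mitochondrial class it was 100% with 6 of 77 below 80%. How reads that match several loci were counted is not given in the sources used here, so levels of cytosolic members are less certain than those of mitochondrial ones. Across genes, which are not independent replicates and here share both libraries, the Spearman correlation between the levels in WT and Exon2KO was 0.99 over 89 cytosolic and 0.97 over 77 mitochondrial members. Over all 17363 tested genes it was 0.95.

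**Figure D3:**
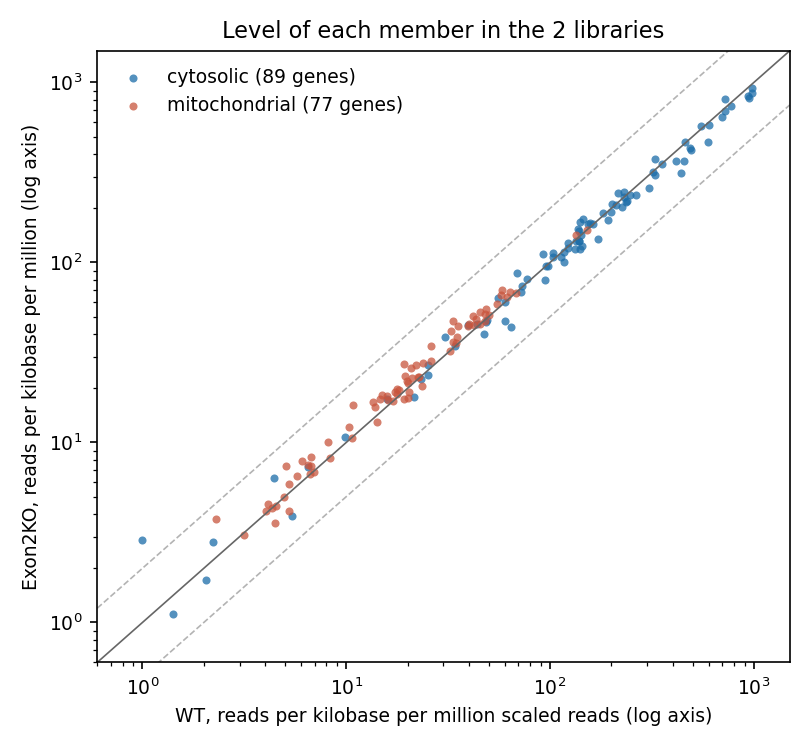
Level of each tested member in WT (horizontal) and Exon2KO (vertical), in RPKM (reads scaled to deposited gene length and library size), on log axes, with equality as a solid line and 2-fold differences as dashed lines. Cytosolic members (blue) include Rplp0 at 982 and mitochondrial members (red) reach 152 in WT. All but Rpl39l lie between the dashed lines.

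Some proteins of either ribosome have names outside the rule. Of the cytosolic genes, Fau, Rack1 and the member Rps27a did not pass the test, and Fau, with 4690 and 4894 reads, had a log2 ratio of 0.03. Of 6 mitochondrial genes in the table, the member Mrpl58 among them, the median was 0.018, with 3 above 0. Outside the rule, Chchd1 and Aurkaip1 (0.060) lay above 0, and Dap3, Ptcd3 (-0.063) and Gadd45gip1 (-0.023) below it. Chchd1 at 0.19 and the member Mrpl58 at 0.23 passed as higher, and Dap3, with 1220 and 1140 reads, had a ratio of -0.12 and did not pass.

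Genes that build or serve the cytosolic ribosome had medians near that of its proteins. Of 70 ribosome biogenesis genes, 11 were higher, 17 lower and 42 did not pass, with a median log2 ratio of -0.06. The 40.0% that passed compares with 41.3% of all tested genes. They ranged from -0.65 for Nmd3, the export adaptor of the large subunit (1534 and 993 reads), to 0.80 for Wdr12, a factor of large subunit processing (146 and 260 reads). Of 48 cytosolic translation factors, 12 were higher, 19 lower and 17 did not pass (64.6% passed), with a median of -0.04, from -0.50 for Eif5a (14522 and 10432 reads) to 0.36 for Eif3a (3048 and 3977). None of these genes was called at 2-fold.

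The nuclear genes that serve mitochondrial translation did not share a direction. Of 32 mitochondrial translation and rRNA factors, 4 were higher, 3 lower and 25 did not pass (21.9% passed, beside 41.3% of all tested genes), with a median of 0.01, from -0.71 for the release factor Mtrf1l to 0.81 for the assembly GTPase Mtg1. Of 17 mitochondrial aminoacyl-tRNA synthetases, 5 were higher, 4 lower and 8 did not pass (52.9% passed), with a median of 0.03, from -0.73 for Mars2 (60 and 36 reads) to 0.88 for Lars2 (805 and 1512).

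The RNAs that the mitochondrial ribosome translates, and its own rRNAs, were higher in Exon2KO. All 13 mitochondrially encoded protein genes had ratios above 0, 11 passed as higher (84.6%, beside 19.4% of all tested genes that passed as higher) and 0 as lower, and the median was 0.70. mt-Nd3 at 1.11 (119 and 264 reads) and mt-Co3 at 1.00 (453 and 925 reads) were called at 2-fold, and mt-Atp8 and mt-Nd4l, with 31 and 39 and with 11 and 16 reads, did not pass. These 13 genes took 0.551% of the reads in WT and 0.903% in Exon2KO. The 12S rRNA mt-Rnr1 had a ratio of 0.99 and the 16S rRNA mt-Rnr2 of 0.63. The mitochondrial ribosomal proteins thus shared the direction of the mitochondrial transcripts, at a median of 0.12 against 0.70. RNA quality and the share of mitochondrial RNA per cell were not tested.

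**Figure D4:**
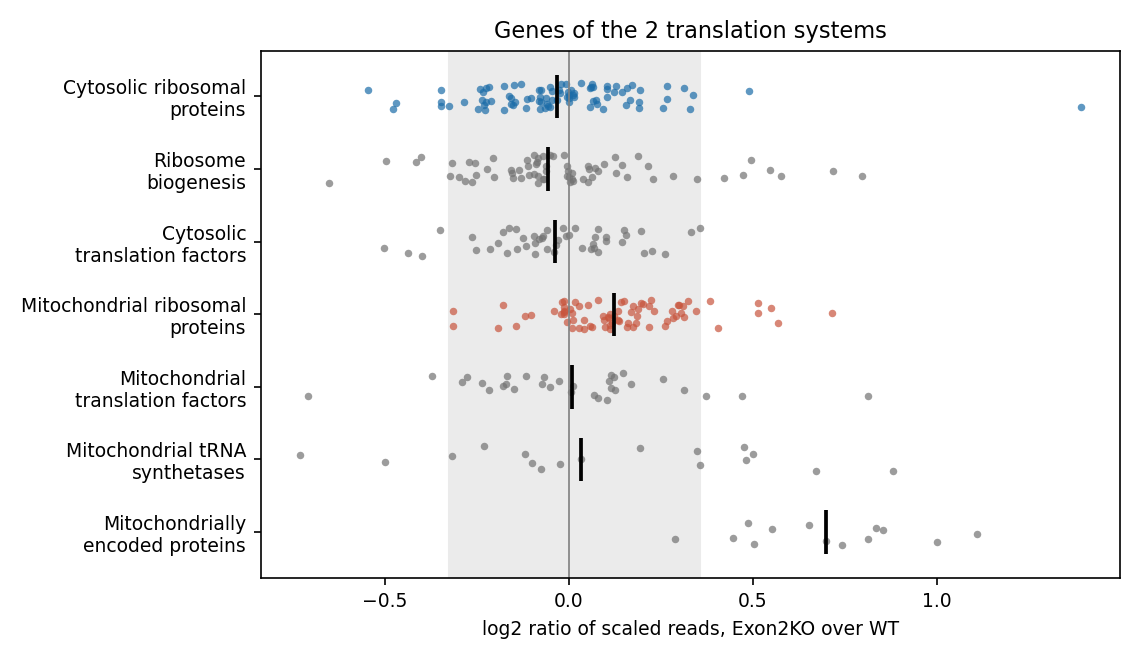
Log2 ratio of scaled reads, Exon2KO over WT (horizontal axis), with 1 point per tested gene, a black line at each median and a grey band for the interquartile range of all tested genes. Medians run from -0.06 for ribosome biogenesis to 0.12 for mitochondrial ribosomal proteins, and the mitochondrially encoded proteins stand apart at 0.70.

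Regulators of ribosome production included 1 gene called lower and 1 called higher. Myc, a transcription factor that drives ribosome production, had 1631 and 460 reads and a log2 ratio of -1.85 (-2.01 to -1.70). Eif4ebp3, an inhibitor of cap-dependent translation, had 1 and 18 reads, with a 95% interval of the log2 ratio from 1.48 to 9.52. Of 23 tested genes of this list, 7 were higher, 4 lower and 12 did not pass, with a median of 0.14. The 47.8% that passed compares with 41.3% of all tested genes, and the 2 called genes with 13.8% called. The other genes that passed as higher were Pprc1 at 0.65, Tsc2 at 0.41, Larp4 at 0.37, Mtor at 0.29, Yy1 at 0.23 and Tsc1 at 0.22. Those that passed as lower beside Myc were Gabpb1, a partner of the ETS factor Gabpa, at -0.44, Nrf1 at -0.29 and Rheb at -0.13. Tsc1 and Tsc2 restrain the growth kinase mTOR and Rheb activates it. Beside the lower Myc, the biogenesis genes had a median of -0.06 and the cytosolic ribosomal proteins of -0.03.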

How the data were processed

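Unscaled gene-level read counts of both libraries were deposited by the authors, with FPKM values, a scaled count signal, and a log2 fold change, p-value and adjusted p-value from their own comparison. The counts are the input to every value here unless the authors' table is named. Per the submitters' processing notes, HISAT2 2.0.5, StringTie 1.3.3b, featureCounts 1.5.0-p3, DESeq2 1.16.1 and build mm10 were used, and their roles, the use of strand and the treatment of reads that match several loci are not given in the sources used here. A column kit and a NEBNext library preparation were used for the RNA, per the labels' protocols.

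edgeR 4.0.16 (R 4.3.3) gave TMM factors of 0.964 (WT) and 1.04 (Exon2KO). Since 1 library per genotype leaves no spread to fit, the split of each gene's reads between the libraries was set against their scaled sizes in a 2-sided exact binomial test. The 17363 genes with at least 10 reads were tested, and p-values were adjusted over all of them by Benjamini-Hochberg. Each log2 ratio sets Exon2KO over WT after adding a prior count of 2. Their 95% intervals are Clopper-Pearson intervals without the prior count, for counting error only, because no spread between samples could be fitted. PCR copies of 1 molecule cannot be told from separate molecules here, so these intervals may be too narrow. The test was checked on simulated counts that held counting error only, so that check does not cover spread between samples. Python 3.11.15 with scipy 1.17.1, pandas 2.3.3, statsmodels 0.14.6 and matplotlib 3.10.9 was used.

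The 2-sided p was first taken by minimum likelihood, which gave 7306 genes with an adjusted p below 0.05 and 2453 called at 2-fold. After these results had been seen and set beside counts from an earlier analysis of the same data, it was replaced by 2 times the smaller tail, which matches that analysis and gave 7173 and 2399. Counts of members that passed were equal under both.

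Values are printed for the 5 highest and 5 lowest log2 ratios of each class among members with at least 100 reads in 1 library, called members, paralogs and their partners, the 5 highest and 3 lowest levels, and members at 0 reads. For other gene lists they are printed for called genes and the extremes. Some genes that this rule names are not reported here. Rpl5, Rpl11, Rps6, Rplp0 to Rplp2, Mrps14, Dap3, the growth control genes that passed but were not called, Cd3e, Cd3d, Cd3g, Il2ra, Epcam, Nkg7, Cd8b1, Pecam1, Rps10, Rpl24, Rpl13a and the genes whose start sequences are shown were named after their values were seen. So were the measure of shared sequence (exact 100-base stretches in GENCODE M21), the split by bacterial family number, the 1.2-fold window, the group with at least 1000 reads, the C or T run and the motifs. The members and all gene lists were chosen with earlier results of these data known.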

Additional observations from a re-analysis of the deposited data

Results flagged for a closer look

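Loci annotated as pseudogenes of cytosolic ribosomal proteins, which lie outside the 172 members, held 17109 reads in WT and 17528 in Exon2KO, above the 3 reads that a count of 0 allows. They came to notice as signal in data that the comparisons do not use. Of 384 such loci 101 were tested, with a median log2 ratio of -0.02, 10 higher and 11 lower in Exon2KO. The 20.8% that passed compares with 41.3% of all tested genes. At 2-fold 2 were called higher and 6 lower, beside 13.8% of all tested genes, among them Rpl18-ps1 with 65 and 193 reads and Rps26-ps1 with 166 and 30. Rpl3-ps1 held the most reads, 1766 and 1657. These loci share sequence with the members, and how reads were divided between them was not tested.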

How the results depend on the processing

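No paired analysis was possible because each genotype has 1 library. There was no replicate to leave out.

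The cytosolic median log2 ratio, -0.03, was -0.019 with DESeq2 size factors, 0.073 with total counts, -0.039 with no read minimum beyond 1 read and -0.053 after a correction for gene length. The cytosolic sum, -0.08, was -0.070 with DESeq2 size factors and 0.021 with total counts. Total counts also moved the mitochondrial median to 0.23, its sum to 0.24 and its members with an adjusted p below 0.05 to 51. The difference of the medians, 0.16, was 0.18 with the length correction. Members with an adjusted p below 0.05 fell to 0 and 0 with a BCV of 0.2 and with 0.4, beside 1115 and 164 of all tested genes. Called cytosolic members fell to 0 under both BCVs and at 4-fold, while called mitochondrial members became 1 at 1.5-fold. As shares of protein-coding reads, cytosolic members held 3.46% and 3.51% and mitochondrial members 0.437% and 0.519%, and with pseudogene loci added cytosolic members held 3.22% and 3.28%.

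Among single genes, Rpl7l1 became 0.026 and Rpl36a 0.047 with total counts, Rps27 -0.0038 and Rps27rt -0.037 with the length correction, and Rpl22l1 -0.025 and Rps27rt -0.041 with length and GC. Mrpl24 did not pass with DESeq2 size factors or total counts, nor Mrps25 with total counts, while Rpl22 and Rps27rt passed with total counts, Rpl36al and Mrps18a with a read minimum of 50, and Mrps18a with protein-coding genes only. The cause of these changes was not tested. Alternatives chosen after seeing the data gave cytosolic medians of -0.012 for members with at least 90% unique stretches, -0.045 for members with at least 1000 reads and -0.045 without paralogs, retrocopies and Rps19bp1, and a difference of medians of 0.14 for the first. The mitochondrial median stayed above the cytosolic one under every alternative that gave both. Depth limits the low members: Rpl39l rests on 13 and 38 reads, and its adjusted p was 0.148 with a BCV of 0.2.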
